A study of Mus musculus with 24 samples.

Results

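Mouse embryonic stem cells grown in serum were compared with the same kind of cells grown in a serum-free medium, in both cases with the DNA-binding protein CTCF present, by the positions of their open chromatin. The comparison rests on 4 of the 24 libraries of the series, 2 in serum and 2 in serum-free medium, each deposited as its own list of ATAC-seq peaks. ATAC-seq inserts sequencing adapters into accessible DNA, and a peak is a place where insertions pile up. A site was any stretch covered by overlapping peaks of the 4 lists, which gave 170033 sites. A serum site had a peak in both serum libraries and in neither serum-free library, and there were 2353 of them, which is 1.38% of all sites. A serum-free site had the reverse pattern, and there were 52550, which is 30.9%. Another 40999 sites had a peak in all 4 libraries and are called shared sites.

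All 4 libraries came from E14, a mouse embryonic stem cell line, carrying a CTCF AID genotype, in which the protein is fused to a degron and can be removed by the auxin IAA. None of the 4 received IAA. The 2 serum libraries carried CTCF AID alone, while the 2 serum-free libraries came from an overexpression control line of the same genotype, so medium, line and sequencing set cannot be told apart within these 4 libraries. The serum-free medium contained leukemia inhibitory factor with the MEK inhibitor PD0325901 and the GSK3 inhibitor CHIR99021. A growth protocol naming that medium is attached to every library, including those whose treatment label says serum, and the grouping follows the treatment label; what the serum medium contained is not given in the sources used here. The 2353 and 52550 sites were defined without the other 20 libraries, which are used below for comparison. They were 2 of the serum line after 12 h of IAA, 6 of serum-free CTCF AID lines after 12 h of IAA (2 each of the control line and of lines overexpressing wild-type or mutated CTCF), and 12 serum-free libraries of a Chd4 set and a Chd8 set, each with 2 libraries of the shluci control and of either of 2 shRNAs. Nothing in the labels says that libraries of a group came from separate cultures, so p-values measure only the spread between these libraries, which may be technical. In a bulk library, a place open in fewer cells and a place less open in each cell cannot be told apart.

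In medium with both inhibitors and leukemia inhibitory factor, embryonic stem cells are held in the naive state, which relies on factors such as ESRRB, TFCP2L1, NR5A2 and KLF proteins. MEK inhibition blocks signaling from FGF through ERK, which otherwise primes the cells for differentiation. GSK3 inhibition stabilizes beta-catenin, the partner of TCF/LEF proteins at Wnt target genes. Serum carries growth factors, lipids and retinoids, and cells kept in it express more of the de novo DNA methyltransferases and of early lineage regulators. CTCF binds a long consensus and anchors chromatin loops.

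The strongest sites of each medium are shown first, to give the DNA behind the 2 classes. The following are the 2 strongest serum sites and the 2 strongest serum-free sites outside promoters, by the mean rank of their peaks in both lists of the medium. Each is printed on the plus strand of mm10 from 100 bp before to 100 bp after the summit. Capitals mark any match to the 21 motifs searched. The serum sites lie at chr8:113884036-113884236 and chr4:48697418-48697618, and the serum-free sites at chr8:20394621-20394821 and chr1:172062196-172062396.
serum site 1: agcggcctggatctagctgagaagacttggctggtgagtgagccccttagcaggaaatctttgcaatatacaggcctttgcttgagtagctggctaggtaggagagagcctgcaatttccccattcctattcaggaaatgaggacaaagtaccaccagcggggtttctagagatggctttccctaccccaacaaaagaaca
serum site 2: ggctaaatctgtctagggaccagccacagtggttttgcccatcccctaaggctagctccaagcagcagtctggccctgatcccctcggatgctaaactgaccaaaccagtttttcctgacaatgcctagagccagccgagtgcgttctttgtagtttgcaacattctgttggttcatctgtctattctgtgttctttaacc
serum-free site 1: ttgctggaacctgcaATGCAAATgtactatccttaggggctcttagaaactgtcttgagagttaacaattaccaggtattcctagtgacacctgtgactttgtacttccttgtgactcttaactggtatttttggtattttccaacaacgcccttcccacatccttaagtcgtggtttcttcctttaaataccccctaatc
serum-free site 2: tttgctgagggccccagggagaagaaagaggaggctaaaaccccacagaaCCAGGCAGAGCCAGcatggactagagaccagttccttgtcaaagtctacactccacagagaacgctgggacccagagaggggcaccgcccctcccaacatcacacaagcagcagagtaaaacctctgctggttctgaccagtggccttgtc
Neither serum sequence held a match. The serum-free sequence on chromosome 8 held the octamer ATGCAAAT, the DNA word read by OCT4, and 95% of it is repeat-masked. The one on chromosome 1 held the TFCP2L1 word, a pair of CCAG with a gap of any letters between them.

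Further sequences show motifs that were compared between the media, with only the named motif in capitals. They are the strongest serum site with an AP-1 word (TGANTCA), the strongest serum-free site with an ESRRB word (TCAAGGTCA) in a window under 10% repeat, the strongest serum-free site with a TCF/LEF word (CTTTGAT) and the strongest serum site with a CTCF consensus. The last 3 were chosen after their values were seen. The search let the middle base of the AP-1 word be any letter, so the word is looser than a fixed AP-1 element. The match shown, TGAATCA, has an A there.
serum site with AP-1: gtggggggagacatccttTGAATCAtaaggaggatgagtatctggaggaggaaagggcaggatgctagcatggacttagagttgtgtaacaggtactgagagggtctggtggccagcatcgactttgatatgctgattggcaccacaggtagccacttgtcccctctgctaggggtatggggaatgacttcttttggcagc
serum-free site with ESRRB: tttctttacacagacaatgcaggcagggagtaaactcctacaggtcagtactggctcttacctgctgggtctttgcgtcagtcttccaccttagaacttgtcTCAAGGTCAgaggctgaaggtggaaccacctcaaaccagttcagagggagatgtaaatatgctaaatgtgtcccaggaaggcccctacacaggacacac
serum-free site with TCF/LEF: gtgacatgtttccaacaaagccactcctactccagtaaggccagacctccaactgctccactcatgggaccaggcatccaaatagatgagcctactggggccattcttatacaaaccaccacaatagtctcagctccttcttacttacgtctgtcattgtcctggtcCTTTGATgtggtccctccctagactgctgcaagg
serum site with CTCF: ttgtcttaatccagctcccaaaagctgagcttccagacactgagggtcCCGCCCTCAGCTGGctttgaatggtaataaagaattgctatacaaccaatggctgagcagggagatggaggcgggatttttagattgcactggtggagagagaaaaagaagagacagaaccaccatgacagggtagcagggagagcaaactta
These lie at chr7:56419318-56419518 in an intron, chr7:105445162-105445362 in an intron, chr11:108785555-108785755 in an intron and chr2:145139714-145139914 between genes. None of the ESRRB sequence is repeat-masked. Both serum-free sequences had a peak in all 4 shluci libraries and in both control-line libraries with IAA, and in the serum libraries with IAA the ESRRB site had a peak in 1 of 2 and the TCF/LEF site in none. The AP-1 and CTCF sequences had a peak in both serum libraries with IAA and in neither control-line library with IAA, but in 1 and 2 of the 4 shluci libraries.

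The serum lists held 69153 and 59786 peaks and the serum-free lists 132912 and 139221. If MACS2 was run without a control, the values of these lists imply 23.6 and 21.8 M reads in serum and 36.1 and 33.7 M reads in serum-free medium (M, mega). In serum 24684 and 18594 peaks reached a −log10 q of 10, against 78245 and 79960. Within serum, 68.0% of the peaks of replicate 1 overlapped one of replicate 2 and 79.2% the other way, against 84.1% and 81.3% in serum-free medium. Promoters of 8 of 10 embryonic stem cell markers were covered in all 4 libraries, those of Pou5f1 and Tdgf1 in some. Also covered in all 4 were 6 of 7 primitive endoderm, 4 of 6 trophoblast and 4 of 5 neural marker promoters. Over all protein-coding genes the share was 61.2%, so promoter cover did not tell these cell types apart. Of 10 fibroblast markers, which could come from feeder cells, 5 and 4 promoters were covered in serum and 5 and 6 in serum-free medium, with Col1a1, Col3a1, Postn and Lum covered in none. Because the lists differ in length and depth, many values below are also given from equal-length lists, which keep the 59786 strongest peaks of each library by the authors' −log10 p.

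Open chromatin of the serum libraries was mostly also open in serum-free medium. Of the serum peaks, 86.5% (replicate 1) and 88.4% (replicate 2) overlapped a peak of at least 1 serum-free library, while 46.0% and 44.3% of the serum-free peaks overlapped a serum peak. The share without a peak in the other medium was lower the stronger the peaks were, in every list. In the weakest decile of the serum peaks it was 40.4% and 36.8%, and in the strongest decile 0.101% and 0.100%. In serum-free medium it was 86.4% and 87.3% in the weakest decile and 4.33% and 4.90% in the strongest. With equal-length lists there were 8594 serum sites (9.29% of 92466) and 14555 serum-free sites (15.7%), so the imbalance of 2353 against 52550 depends on list length. Asking for a −log10 q of at least 10 left 254 serum sites and 44889 serum-free sites. Without serum replicate 1 there were 6961 serum sites and without serum replicate 2 there were 9370, since then 1 list decides what is open in serum.

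**Figure D1:**
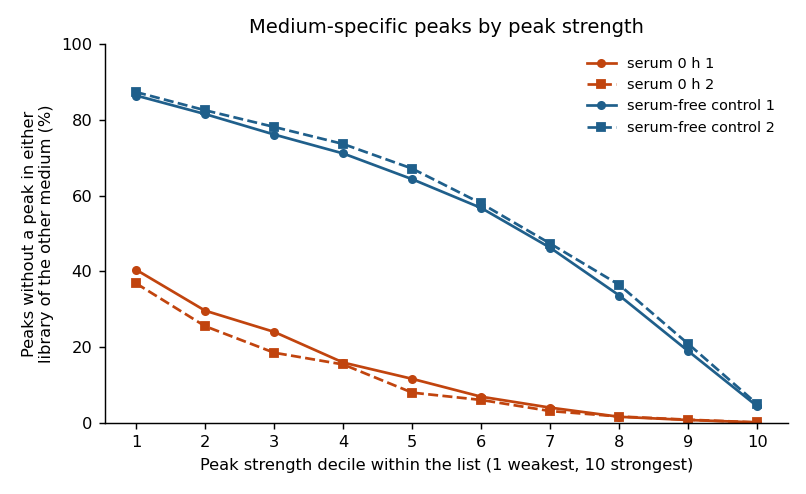
Share of peaks (%, vertical axis) without a peak in either library of the other medium, by decile of the authors' −log10 p within each list (horizontal axis), 1 line per library. The 2 serum lines fall from 40.4% and 36.8% to 0.101% and 0.100%, and both serum-free lines lie above them in every decile.

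Serum sites ranked low in their lists, and sites of either medium lay far from promoters. The median rank within the list was the 32.2 percentile for serum sites, 42.2 for serum-free sites and 69.3 for shared sites. A summit within 500 bp of a transcription start was found in 5.10% of serum sites (95% Wilson interval 4.28 to 6.06), 3.89% of serum-free sites (3.73 to 4.06) and 32.8% of shared sites. These intervals cover counting error only, since neighbouring sites of the same libraries are not independent. Introns held 40.2% of serum sites and 53.4% of serum-free sites, and intergenic DNA 47.3% and 36.6%. More than 100 kb from any start lay 7.56% of serum sites, 3.97% of serum-free sites and 2.60% of shared sites. The median GC content around the summit was 50.9% in serum sites, 48.3% in serum-free sites and 53.3% in shared sites. Repeat-masked bases made up 29.8% of serum windows on average, against 20.1% and 14.9%. By chromosome, serum sites were thinner on chromosome 6 (4.21% of them, against 6.86% of serum-free sites) and on X (1.36% against 2.52%), and denser on 3 (7.14% against 5.37%) and 19 (3.44% against 2.11%).

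At the level of whole lists cut to equal length, 25.4% and 25.3% of serum peaks lay at promoters, against 23.1% and 23.0% of serum-free peaks. The serum values are the higher pair, and the difference of 2.34 points is larger than the combined SD of 0.151 points. A two-sided exact permutation test of 2 libraries against 2 gave p = 0.333, the smallest it can give, and 0.333 after Benjamini-Hochberg adjustment over 4 tests. With lists at their deposited length the difference was 11 points, and with a −log10 q of at least 10 it was 25.6. Over the whole series the media overlapped: the serum IAA lists had 25.2% and 24.7%, and the other 18 serum-free lists 17.1 to 29.3%, with all 6 Chd8 lists, at 25.9 to 29.3%, above both serum lists.

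Libraries that took no part in defining the sites differed in the same direction, widely where they shared a line or set with the defining libraries and less in the Chd sets. The serum line after 12 h of IAA, in which IAA degrades CTCF, had a peak at 70.3% and 71.5% of serum sites and at 12.9% and 19.2% of serum-free sites. The 6 serum-free CTCF AID libraries with IAA showed the mirror image, with 13 to 17.7% of serum sites and 79.8 to 90.1% of serum-free sites. These 8 libraries share their line or set with the libraries that defined the sites. The Chd4 and Chd8 sets do not, and they had a peak at 13 to 26% of serum sites and 18.4 to 48.6% of serum-free sites. In the Chd4 shRNA libraries the 2 percentages were close, with serum minus serum-free at −2.85 to −4.82 points. The implied depth of both Chd sets, 10.0 to 20.5 M reads, lies below that of the serum libraries.

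The percentage of serum sites called minus that of serum-free sites called was 54.8 ± 3.56 points in the serum IAA libraries (SD, n = 2) and −32.9 ± 27.3 points in the other serum-free libraries (SD, n = 18). The 2 groups did not overlap, the highest serum-free value being −2.85. The difference of 87.7 points gave p = 0.0105 in a two-sided exact permutation test, the smallest value that 2 against 18 can give. After Benjamini-Hochberg adjustment over 4 tests it was 0.0421. The test treats single libraries as exchangeable, although the 18 clustered by set. The 6 CTCF line libraries with IAA had −69.2 ± 3.16 points and the 12 of the Chd sets −14.7 ± 8.34 (SD). The serum side is a single group, so no spread between serum groups could be measured. Against the 12 libraries of the Chd sets alone the difference was 69.6 points (exact permutation p = 0.0220, the smallest possible). Against the 2 control-line libraries with IAA it was 122.0 points, where the exact permutation p of 0.333 is the least that 2 against 2 allows.

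**Figure D2:**
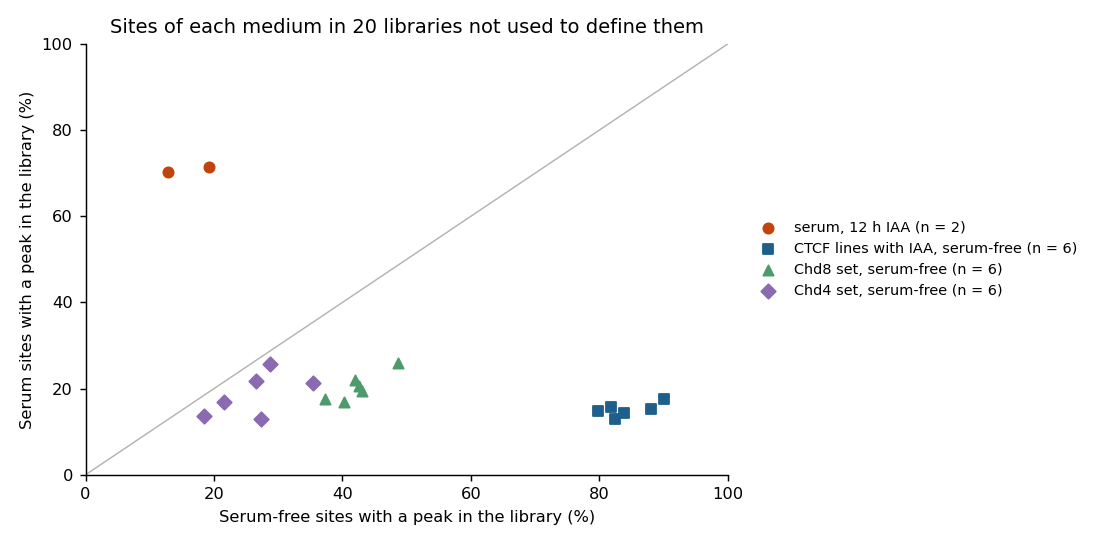
Percentage of serum-free sites (horizontal axis) and of serum sites (vertical axis) with a peak in each of the 20 libraries not used to define the sites, 1 point per library. The 2 serum libraries with IAA sit near 70.3% and 71.5% on the vertical axis, and all 18 serum-free libraries sit below the diagonal.

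The agreement was partial in both media. Both serum IAA libraries had a peak at 1452 serum sites (61.7%) and neither at 470. At least 1 of the 4 shluci libraries had a peak at 35761 serum-free sites (68.1%) and all 4 at 6772 (12.9%). Called by both serum IAA libraries and by no shluci library were 754 serum sites (32%). Called by all 4 shluci libraries and by neither serum IAA library were 3897 serum-free sites (7.42%). These smaller sets are used below beside the full ones and were chosen after the data were seen.

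The DNA words of ESRRB and of TCF/LEF proteins were more frequent in serum-free sites. The ESRRB word lay within 250 bp of the summit, on either strand, in 0.595% of serum sites (95% Wilson interval 0.355 to 0.996) and 3.79% of serum-free sites (3.63 to 3.96), against 1.52% of shared sites and 2.56% of all sites. The same letters in reversed order gave 0.297% and 0.733%. The TCF/LEF word was in 5.52% of serum sites (4.67 to 6.52) and 9.98% of serum-free sites (9.72 to 10.2), against 6.12% of shared sites and 8.13% of all sites, with reversed letters at 4.76% and 5.48%. In serum sites the TCF/LEF word was thus close to its reversed control, and in serum-free sites it was well above it.

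Several other words of pluripotency and growth control were compared in the same way. The octamer was in 2.68% of serum sites and 4.92% of serum-free sites (all sites 4.25%). A KLF word (GGGNGTGGC) was in 4.38% and 7.34%, against 7.13% of all sites and 9.15% of shared sites, so that the serum-free share was near that of all sites. The TFCP2L1 word was in 6.88% of serum sites (5.93 to 7.98) and 7.63% of serum-free sites (7.40 to 7.86), with overlapping intervals. The TEAD word (ACATTCC), read by the partners of YAP, was in 6.29% and 10.6% (all sites 8.97%). The AP-1 word with any middle letter, counted for the FOS and JUN proteins that serum induces, was in 13.7% of serum sites (12.4 to 15.1) and 16.4% of serum-free sites (16.1 to 16.7). Its reversed letters were in 10.8% and 12.7%. In windows under 50% repeat the AP-1 word was in 14.9% (13.3 to 16.6) and 16.6% (16.2 to 16.9), with overlapping intervals. The CArG box of SRF was in 2.93% and 2.38%, with overlapping intervals. Of the 21 motifs, 15 had the higher share in serum-free sites, but so did 16 of the 20 reversed words that differ from the word itself, so this count is no more than the reversed words gave.

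CTCF, YY1 and SP had a higher share in serum sites. The CTCF consensus, with at most 1 mismatch, was in 9.60% of serum sites (8.48 to 10.9) and 3.39% of serum-free sites (3.24 to 3.55), against 10.2% of shared sites and 6.69% of all sites, with reversed letters at 0.212% and 0.234%. The YY1 word (AAGATGGCG) was in 3.57% and 0.780%, but in windows under 50% repeat it was in 0.775% and 0.445%. The SP word (GGGGCGGGG) was in 3.82% (3.12 to 4.68) and 2.52% (2.39 to 2.66), against 12.6% of shared sites and 5.17% of all sites, but within 100 bp of the summit its direction turned, at 1.06% and 1.27%.

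**Figure D3:**
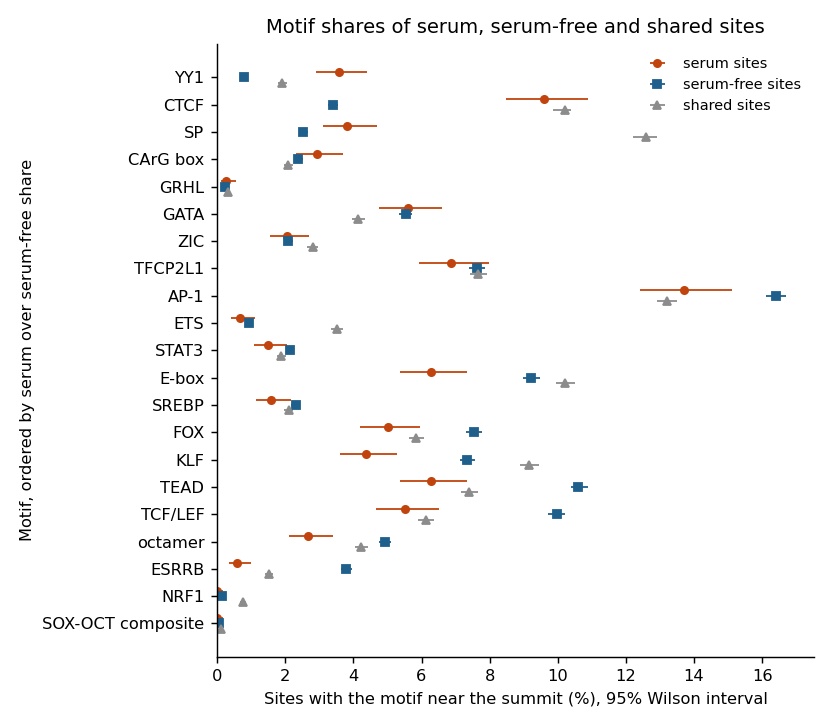
Share of sites (%, horizontal axis) with each of 21 motifs within 250 bp of the summit, for serum, serum-free and shared sites, with 95% Wilson intervals as bars. ESRRB, TCF/LEF, TEAD and KLF lie higher in serum-free sites, and CTCF, YY1 and SP in serum sites, SP not within 100 bp.

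These differences were compared under other choices of sites. ESRRB was in 0.954% and 4.14% of sites from equal-length lists and in 0.664% and 3.67% of windows under 50% repeat. In the sets also held by other libraries of the same medium it was in 0.531% and 4.88%, and TCF/LEF was in 3.71% and 13.6%. TCF/LEF was in 5.90% and 11.8% of sites from equal-length lists. CTCF was in 12.4% and 3.08% of sites from equal-length lists but in 1.33% and 4.34% of the sets also held by other libraries, where every serum site had to be called after CTCF degradation.

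The same words separated the libraries as wholes. Among the 59786 strongest peaks of each library, ESRRB was in 1.40% and 1.45% of serum peaks and in 2.51% and 2.50% of serum-free peaks. The 2 serum IAA libraries had 1.54% and 1.65%, and the other 18 serum-free libraries 2.29 to 2.82%. All 4 serum libraries therefore lay below all 20 serum-free libraries. The 4 serum libraries share a line and a set, which cannot be told apart from the medium, and the part of depth was not tested. TCF/LEF was in 6.34% and 6.26% of serum peaks, 6.44% and 6.61% of serum IAA peaks, 8.17% and 8.20% of serum-free control peaks and 6.81 to 9.18% of the other serum-free lists, again without overlap. Of the 21 motifs, 3 separated the 4 serum libraries from the 20 serum-free ones, ESRRB and TCF/LEF as lower and the SP word as higher, at 9.53 to 9.98% against 5.37 to 9.52%. Between the 2 serum and the 2 serum-free control libraries alone, 18 of the 21 did not overlap, so that a lack of overlap there is common. The octamer, at 3.85 to 4.21% in serum and 3.92 to 6.12% elsewhere, overlapped over the whole series.

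**Figure D4:**
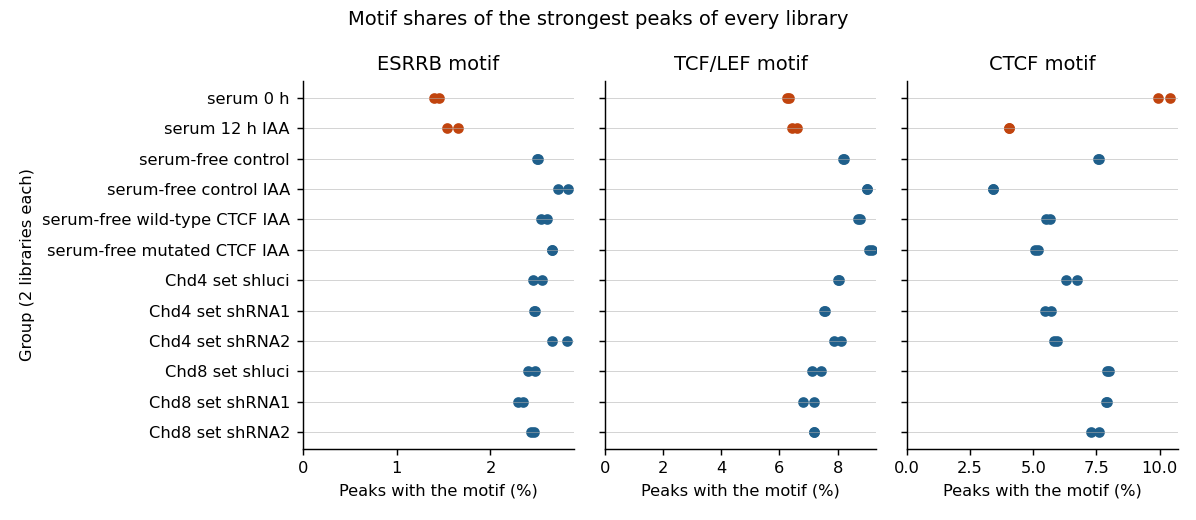
Share of the 59786 strongest peaks of each of 24 libraries (%, horizontal axes) with the ESRRB, TCF/LEF and CTCF motif within 250 bp of the summit, by group, with serum libraries in orange and serum-free libraries in blue. All 4 serum libraries lie left of all others for ESRRB and TCF/LEF, while CTCF is highest in the 2 serum libraries without IAA.

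CTCF was in 10.4% and 9.95% of equal-length serum peaks and 7.57% and 7.62% of serum-free peaks. The serum pair was higher by 2.60 points, more than the spread, with an exact permutation p of 0.333 and an adjusted p of 0.333. AP-1 was in 13.4% and 13.6% of serum peaks and 14.2% and 14.3% of serum-free peaks. It was lower in serum, with a difference of −0.754 points, the same exact permutation p of 0.333 and an adjusted p of 0.333. In the serum IAA lists, however, AP-1 was in 14.4% and 14.5%, above both serum-free control lists, and in the other 18 serum-free lists in 13.3 to 15.2%, so that it did not separate the media over the series. Both sizes depended on the settings: with motifs within 100 bp the CTCF difference was 1.10 points, and with a −log10 q of at least 10 it was 1.39 and the AP-1 difference −2.74. Among serum-free libraries that kept CTCF, the Chd8 shluci lists had 8.02% and 7.94% with the CTCF consensus and the Chd4 shluci lists 6.73% and 6.28%, all below both serum lists.

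Serum sites with the CTCF consensus behaved differently from the other serum sites in the libraries with IAA. Of the 226 with the consensus, the serum IAA libraries had a peak at 15.0% and 16.8%, against 76.1% and 77.3% of the 2127 without it. In the Chd8 shluci libraries, which kept CTCF in serum-free medium, 36.3% and 38.9% of the consensus sites and 15.0% and 24.6% of the others had a peak. Among serum-free sites, the 1781 with the consensus had a peak in 44.1% and 46.8% of cases in the control line with IAA, against 81.0% and 83.6% of the 50769 without it. These are counts within single libraries, given without a test.

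A serum site lay at a promoter of 0.297% of protein-coding genes and a serum-free site at a promoter of 4.32%. Among the 6 strongest in serum were Nrg1, a growth factor of the ERBB receptors (chr8:31918575-31918917, mean rank percentile 79.0), Ttll9, a tubulin ligase-like enzyme (78.1), Spag17 of motile cilia (76.4), Stmn4 of the stathmin family (71.3), and Vps35l of endosomal recycling (67.2). Each of these had a peak in both serum IAA libraries. Of the 12 serum-free Chd libraries, Ttll9 and Spag17 had a peak in 7, Nrg1 in 2, Vps35l in 1 and Stmn4 in none. Nrg1 and Stmn4 had none in the 6 serum-free CTCF AID libraries with IAA, whereas Ttll9 had one in 5 of them and Vps35l in 4.

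In serum-free medium the strongest promoter sites were 2 starts of Crxos, a homeobox gene active in embryonic stem cells, at chr7:15895723-15896376 (percentile 94.8) and chr7:15901166-15901822 (93.2). The others were Pld1, a phospholipase D (94.4), the ion transport regulator Fxyd4 (93.5), Arl14epl (92.7) and Gstm3, a glutathione transferase (92.4). All 6 had a peak in all 6 serum-free CTCF AID libraries with IAA. Both Crxos starts also had one in all 12 Chd libraries and in both serum IAA libraries, so the Crxos sites are missing from the 2 serum lists without IAA and from no other list.

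Outside promoters, the strongest serum site lay between genes, 35521 bp from a start of Adamts18, a secreted metalloprotease, at percentile 98.1. The next were 34004 bp from Cavin4 of caveolae (91.4) and sites whose nearest protein-coding genes were Cdh19, a cadherin (91.0), the olfactory receptor Olfr1090 (89.5), the adhesion molecule Alcam (89.4) and Tyr, the tyrosinase of melanin synthesis (89.3). All 6 had a peak in both serum IAA libraries. Of the 12 Chd libraries, 5 had a peak at the sites nearest Cdh19 and Olfr1090, 4 at that nearest Alcam, 1 at that nearest Adamts18 and none at the other two. The windows of the sites nearest Cdh19, Olfr1090 and Alcam were 80.4%, 91.4% and wholly repeat-masked.

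The strongest serum-free site outside promoters was 177 bp wide, in an intron and nearest to Gm15319, with 94.8% of its window repeat-masked. It had a peak in all 6 serum-free CTCF AID libraries with IAA but in 1 of the 12 Chd libraries. The next lay 4723 bp from Nhlh1, a neural basic helix-loop-helix gene, with a peak in all 6 and all 12 of those libraries and in neither serum IAA library. The remaining 4 were nearest 4930467E23Rik, Gm4707, Serbp1 and Amy2a5, and the one nearest Gm4707 had a peak in both serum IAA libraries.

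Around genes, the comparison used the number of peak summits within 50 kb of any start in equal-length lists. Of 21911 protein-coding genes, 24.3% had more peaks in both serum libraries than in either serum-free library and 15.7% had fewer, with a median difference of 0. A count of this kind says how the strongest peaks of each list were distributed, not how many peaks a gene had in all. With lists at their deposited length, where the mean number per gene was 5.25 in serum and 9.65 in serum-free medium, the median difference was −3.50 peaks, and 1.33% of genes had more in serum and 70.6% fewer. Since the deposited serum-free lists are the longer ones, this scaling lowers serum against serum-free medium across genes: of the 5320 genes with more among the strongest peaks, 255 had more with the deposited lists and 3193 had fewer. That genes with fewer peaks in serum mostly stay so follows from the list lengths and does not mark them as the firmer calls. Among the 189 genes of the lists below, Msx2 alone had more under both lengths. Of the gene clusters described at the end, 1 Hoxd and 5 beta protocadherin genes did so too. Every count of genes with more peaks in serum below therefore holds for equal-length lists only, and the counts with deposited lists stand beside the lists on which most is said. In libraries outside the comparison, the 2 serum IAA libraries against 4 shluci and 2 control-line IAA libraries, 8.40% of genes had more peaks without overlap and 5.80% fewer. Genes that had more in both comparisons made up 5.75% of the total, and genes that had fewer in both 3.53%. A serum site lay within 50 kb of 11.9% of genes and a serum-free site within 50 kb of 79.1%. The gene lists below were drawn up from what is known of the 2 media. Of their 189 genes, 39 had a serum site and 174 a serum-free site within 50 kb, and 176 had a site of either medium. The share of all genes with a site of either medium was not counted, so the 176 is not read as a result about the lists.

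Among naive pluripotency genes, 7 of 21 had fewer peaks in serum and 4 more, and the median difference was −0.500 peaks. With lists at their deposited length 19 had fewer and none more, with a median difference of −8.50 peaks. Nr5a2, a nuclear receptor that can drive Pou5f1, had 4 and 6 peaks in serum and 14 and 14 in serum-free medium. Esrrb, the orphan receptor that binds the word shown above, had 16 and 16 against 23 and 25. Tfcp2l1, a transcription factor of the naive network, had 6 and 6 against 12 and 12.

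For Esrrb and Tfcp2l1 the serum IAA libraries, at 16 and 18 and at 5 and 9 peaks, also lay below the 4 shluci and 2 control-line IAA libraries, at 21 to 30 and 10 to 18. For Nr5a2 they had 5 and 7 peaks against 6 to 14, which overlap. Stat3, which relays the signal of leukemia inhibitory factor, went the other way with 8 and 8 peaks against 3 and 4, and 7 and 9 in the serum IAA libraries against 1 to 4. Promoters of 19 of the 21 genes were covered in all 4 libraries (61.2% of all genes were). Cover is a yes or no call and does not show whether starts differed in degree. Serum-free sites lay near 20 of the 21 and serum sites near 4.

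Of the 3 core pluripotency genes, Sox2 had 10 and 11 peaks in serum and 5 and 5 in serum-free medium, Nanog 13 and 13 against 14 and 14, and Pou5f1 13 and 12 against 10 and 12. None of them kept its direction without overlap in the other libraries.

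Of 19 primed and early differentiation genes, 9 had more of the strongest peaks in serum and 2 fewer, and 2, Dnmt3b and Pou3f1, had more in both comparisons. With lists at their deposited length 14 of the 19 had fewer and none more, near the 70.6% and 1.33% of all genes. Serum-free sites lay near 17 of them and serum sites near 4. Pou3f1, a POU factor of the primed state, had 12 and 9 peaks in serum against 5 and 6, and 14 and 13 in the serum IAA libraries against 2 to 6 in the 6 others. Sall2 had 11 and 10 against 5 and 7, and Zic2 11 and 12 against 7 and 8, but both overlapped in the other libraries. Of 15 lineage regulators, 9 had more and 0 fewer, with a median difference of 2.00 peaks, and 5 of them did so in both comparisons. With deposited lists 12 of the 15 had fewer and 1 more, and serum-free sites lay near 13 and serum sites near 3. Among the strongest peaks, Pax6, a regulator of eye and brain, had 8 and 10 against 5 and 4, Nkx2-5 of the heart 5 and 6 against 2 and 2, and Neurog2 of neurons 8 and 6 against 4 and 4.

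Of 9 DNA methylation genes, 4 had more of the strongest peaks in serum and 1 had fewer, while with deposited lists 7 had fewer and none more. Dnmt3a, a de novo methyltransferase, had 16 and 16 peaks against 10 and 7, Dnmt3b 12 and 9 against 8 and 8, and Dnmt3l, their catalytically inactive partner, 11 and 8 against 4 and 4. Uhrf1, which recruits the maintenance methyltransferase, had 11 and 8 against 14 and 12. These 4 kept their direction in the other libraries, where Dnmt3a had 15 and 18 against 5 to 13 and Uhrf1 had 10 and 9 against 13 to 20. With deposited lists Dnmt3a had 20 and 16 against 24 and 26, and Dnmt3b and Dnmt3l overlapped. Tet1, a 5-methylcytosine oxidase, had 12 and 12 against 11 and 9, and the maintenance methyltransferase Dnmt1 8 and 7 against 7 and 8.

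**Figure D5:**
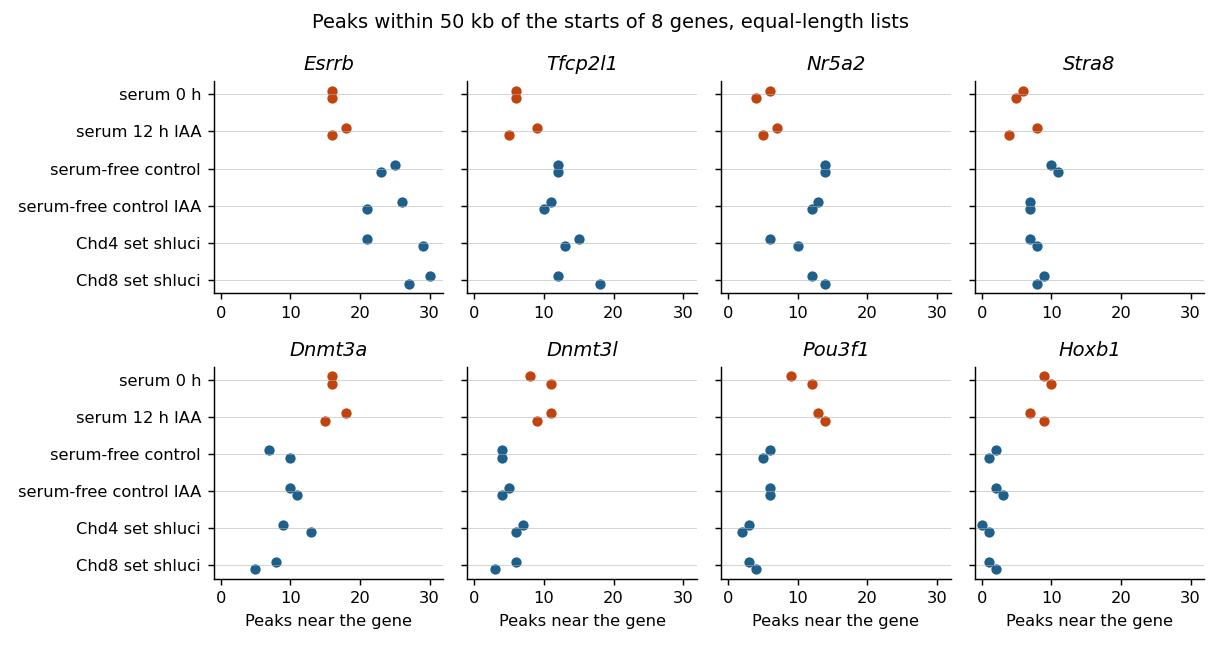
Number of peaks within 50 kb of the starts of 8 genes (horizontal axes) in equal-length lists, for 2 libraries of each of 6 groups, with serum libraries in orange and serum-free libraries in blue. Esrrb has 16 to 18 peaks in serum and 21 to 30 elsewhere, and Dnmt3a has 15 to 18 in serum and 5 to 13 elsewhere, a direction that turns for Dnmt3a in the 4 compared libraries when lists keep their deposited length.

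Signaling lists were mixed. With deposited lists most of their genes had fewer peaks in serum, as did 70.6% of all protein-coding genes. The counts were 13 of 18 FGF and ERK feedback genes, 26 of 29 serum response genes, 15 of 17 Wnt targets and 12 of 14 BMP and TGF-beta genes. For FGF and ERK feedback this is 72.2%, near the share of all genes. Among the strongest peaks, of 18 FGF and ERK feedback genes, 8 had more peaks in serum and 2 fewer, and 3 had more in both comparisons, namely the phosphatase gene Dusp6, Spry4 and Fosl1. Dusp6, which switches ERK off, had 11 and 10 peaks against 8 and 7. Spry4, an inhibitor of receptor signaling, had 7 and 8 against 4 and 4. Etv5, an ETS factor downstream of FGF, had fewer, at 10 and 7 against 14 and 11.

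Of 29 genes of the SRF, AP-1 and YAP serum response, 13 had more and 7 fewer. Ccn2, a YAP target, had 9 and 9 peaks against 4 and 5, while Klf6 had 6 and 6 against 13 and 11 and the immediate early gene Ier2 13 and 11 against 16 and 18. In both comparisons 4 had more (Actg1, Cnn1, Lats2 and Srf) and 0 fewer. Srf itself had 8 and 5 peaks against 4 and 3.

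Of 17 Wnt target genes, 4 had more and 3 fewer, near the 24.3% and 15.7% of all genes. Ccnd1, a cyclin, had 10 and 11 peaks against 6 and 7, and Lef1 11 and 13 against 9 and 8, but no Wnt target had more in both comparisons (serum IAA libraries 7 and 8 against 4 to 8 for Ccnd1, and 9 and 9 against 7 to 11 for Lef1). Cdx1, a homeobox gene, had 7 and 7 against 10 and 11, and 7 and 6 in the serum IAA libraries against 8 to 15. Of 14 BMP and TGF-beta genes, 4 had more and 3 fewer, with Smad6 at 9 and 8 against 6 and 6 and Id2 at 7 and 6 against 10 and 10.

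Of 17 cholesterol synthesis genes, 7 had fewer peaks in serum and 1 more, the other 9 overlapped, and the median difference was −0.500 peaks. With deposited lists all 17 had fewer. Dhcr7, which makes cholesterol from its last precursor, had 3 and 3 peaks against 6 and 6, and Fdft1, squalene synthase, 3 and 4 against 7 and 5. None of the 17 had fewer in both comparisons. All but 1 of the 17 promoters were covered in all 4 libraries.

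Of 10 retinoic acid genes, 6 had more of the strongest peaks and 2 fewer, and with deposited lists 8 had fewer and none more. Hoxb1 had 10 and 9 against 1 and 2. Stra8, a meiosis gene, had 5 and 6 against 11 and 10. Of 15 germline genes silenced by DNA methylation, 4 had more and 4 fewer. Of 10 fibroblast markers, 2 had more and 4 fewer.

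A promoter covered in both libraries of one medium and neither of the other was rare in these lists. Over all genes 0.224% had such a promoter in serum and 3.30% in serum-free medium. Among the listed genes, those in serum were Bmp4, a BMP ligand, and Tdrd1, a germline gene, and both were also covered in both serum IAA libraries and in none of the 4 shluci or 2 control-line IAA libraries. In serum-free medium they were Egr3, Actb, Junb, Sp5, Cyp26b1 and Stra8. Actb encodes the housekeeping protein beta-actin, and its promoter was covered in neither serum IAA library and in 1 of 4 shluci libraries, so a promoter without a peak in these lists is not shown to be closed.

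The Sp5 promoter is shown because Sp5 is a direct Wnt target and held a TCF/LEF word. It is taken from RefSeq on GRCm38.p6, plus strand, chr2:70474673-70474972, with the word in capitals.
Sp5 promoter: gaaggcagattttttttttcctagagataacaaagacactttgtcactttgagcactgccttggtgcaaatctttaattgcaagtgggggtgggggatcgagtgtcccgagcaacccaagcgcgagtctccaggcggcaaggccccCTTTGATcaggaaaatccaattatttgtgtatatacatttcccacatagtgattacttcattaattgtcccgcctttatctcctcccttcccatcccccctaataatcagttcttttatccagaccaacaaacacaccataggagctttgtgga
The word occurs on either strand in 3.73% of 32851 RefSeq promoters of the same length. The Sp5 promoter was covered in neither serum library and in both serum-free libraries, but also in both serum IAA libraries and in all 4 shluci libraries.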

How the data were processed

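The members and the gene and motif lists were chosen with earlier results of these data known. ATAC-seq peaks of mm10 were deposited per library as narrowPeak lists; the tools named, per the submitters' processing notes, are Trim Galore, Bowtie2, MACS2 and deepTools, with their roles, versions and settings not given in the sources used here. In the standard column order of the format, the deposited lists hold a peak score, a signal value (fold enrichment), a −log10 p and a −log10 q. Intervals, summits, −log10 p (rank, list length and implied depth) and −log10 q (a threshold of 10 in an alternative) were used here. The signal value was used for the implied depth only. Reads were not counted, so depth is implied from the lists.

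Peaks of the 4 lists were merged by any overlap in Python 3.11.15 with pandas 2.3.3 and numpy 2.4.6. Starts came from GENCODE vM21 basic and sequence from GRCm38.p6, read with pysam 0.24.0. A promoter was within 500 bp of a start and a gene's neighbourhood within 50 kb. Motifs were searched within 250 bp of summits on both strands. Besides those spelled out above they were STAT3 (TTCCNGGAA), ETS (CCGGAAGT), NRF1, ZIC (CCTGCTGGG), GRHL (AACCGGTT), SREBP (TCACNCCAC), the E-box (CACGTG) and a SOX-OCT composite, which contains the octamer. The forkhead word was TGTTTAC. For factors of the GATA family, the word that was searched for was AGATAAG. The reversed SP word is the same word, so it has no control.

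Named sites were the 6 strongest promoter sites and the 6 strongest others of each medium, and named genes up to 3 per list and direction without overlap. ESRRB was the motif with the highest serum-free over serum share among motifs in at least 1% of serum-free sites. Some items that these rules select are not reported here. Shares per library and the contrast over libraries outside the comparison were tested by exact permutation, adjusted over 4 tests. The scripts were tested on simulated lists and sequences. Alternatives were list length, thresholds, overlap rules, distances, the replicate block and leaving out each library.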

Additional observations from a re-analysis of the deposited data

How the results depend on the processing

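The number of serum sites went from 2353 to 8594 with lists at the length of the shortest, 4833 at 50% of that length and 254 with a −log10 q of at least 10, and it ranged from 3337 to 9370 when one of the 4 libraries was left out. Serum-free sites went from 52550 to 14555 and 6616 with the shortened lists and ranged from 58017 to 77495 with a library left out. Other overlap rules kept both counts within 1.5 times. The contrast over libraries outside the comparison was 69.5 to 105.6 points under 5 of its alternatives, with an exact permutation p of 0.0105 or 0.0220. It was 59.1 to 74.9 points with a library left out. Against the control line with IAA alone it was 122.0 points (exact permutation p = 0.333), where 2 libraries against 2 cannot pass 0.05. These p-values take single libraries as the unit, as stated above. Genes with more peaks in serum went from 5320 to 291 and genes with fewer from 3436 to 15464 with lists at their deposited length, an alternative chosen after seeing the data. The promoter, CTCF and AP-1 differences kept their sign in every alternative but moved in size, over 2.26 to 25.6, 1.10 to 4.18 and −2.74 to −0.465 points, with p never under the 0.333 that this design allows. Replicate numbers are not known to pair libraries; with the replicate block the promoter difference was 2.34 points, the CTCF difference 2.60 and the AP-1 difference −0.754, each with an exact permutation p of 0.500. Of 136 alternatives for single gene lists and motifs, 53 moved and 9 had another sign. Among these were NRF1 (0.0694 points, serum minus serum-free, with lists at the length of the shortest; its word was in 0 of 2353 serum sites, whose Wilson interval to 0.163% covers the serum-free share of 0.145%), SP (−0.205 with motifs within 100 bp) and CTCF (−3.01 in sites also held by other libraries of the medium, an alternative chosen after seeing the data, in which serum sites had to be called without CTCF). The cause of the NRF1 and SP reversals was not tested. The other 6 were of CArG box, ETS, ZIC, GRHL and GATA words, whose 95% intervals without the alternative included 0. The different depth and number of strong peaks in the 2 media limit every count of sites, and weak places of the serum libraries may lie under their detection threshold.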

Other observations

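The Hox clusters and the alpha and beta protocadherin clusters had more of the strongest peaks (equal-length lists) in serum across most of their genes. Among all protein-coding genes 24.3% did. With lists at their deposited length, where 70.6% of all genes had fewer peaks in serum and 1.33% more, 11 of 11 Hoxa, 6 of 10 Hoxb, 9 of 9 Hoxc and 3 of 9 Hoxd genes had fewer, and 1 Hoxd gene had more. These families were looked at after values over all genes were seen, and their members share peaks because they lie side by side. Within the span of the Hoxd genes (94.7 kb) there were 16 and 20 peaks in serum, 6 and 9 in serum-free medium, 12 and 18 in the serum IAA libraries and 2 to 7 in the shluci and control-line IAA libraries. The Hoxb span (171.4 kb) had 16 and 16 against 5 and 6, with 15 and 10 in the serum IAA libraries and 2 to 7 in the others. The Hoxa span (102.6 kb) had 17 and 12 against 7 and 10, and the Hoxc span (113.3 kb) 17 and 17 against 13 and 10. By gene, 11 of 11 Hoxa, 9 of 10 Hoxb, 9 of 9 Hoxc and 9 of 9 Hoxd genes had more peaks in serum, and 10, 8, 5 and 9 of them had more in both comparisons.

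The alpha protocadherins, neuronal adhesion proteins chosen gene by gene in neurons, had 11 and 12 peaks over their span in serum and 2 and 1 in serum-free medium. The serum IAA libraries had 10 and 12, the control line with IAA 1 and 1, and the 4 shluci libraries 2 to 8. The beta cluster next to it had 13 and 16 against 2 and 1. The gamma cluster, on the same chromosome, had 25 and 26 against 24 and 23. By gene, 11 of 13 alpha, 22 of 22 beta and 2 of 21 gamma genes had more in serum, and with deposited lists 0, 5 and 0 had more and 2, 4 and 21 fewer. With IAA in serum the gamma cluster had 19 and 23, the one span of these 7 in which serum did not stay above the serum-free control libraries.

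Among single genes over the whole genome, Mgat5, a glycosyltransferase, had the largest deficit in serum in equal-length lists, with 5 and 8 peaks against 22 and 21, and 12 and 6 in the serum IAA libraries against 17 to 23 in the 6 others. Shroom3, an actin regulator, had 15 and 13 against 27 and 26, but the serum IAA libraries, at 17 and 21, overlapped the 6 others at 20 to 29. Bhmt, which remethylates homocysteine, had 3 and 2 against 12 and 13, and 2 and 4 in the serum IAA libraries against 7 to 13. These were chosen after their values were seen.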
